A study of Arabidopsis thaliana with 16 samples.

Results

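Of 13967 protein-coding genes expressed in Arabidopsis seedlings, 374 carried no peak of N6-methyladenosine (m6A) in any of 6 peak lists, which is 2.68% of them. These never-called genes were chosen by a rule with 3 conditions. The gene is a coding locus on 1 of the 5 nuclear chromosomes. Its mean level is at least 5 CPM (the count of a gene scaled to a common total over all genes of a library) in both the cold and the control mRNA libraries. No peak summit lies in an exon of its first TAIR10 isoform in any list, with the gene on the strand opposite to the word in the peak's name. The count files held 34262 features in all, and 27444 were coding loci of the nuclear annotation. Another 4093 expressed coding genes had a summit in 1 to 5 lists, and 9500 (68.0%) had one in all 6.

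The seedlings were whole plants of ecotype Col-0, 20 days old, grown on agar plates at 22 °C with 12 h of light and 12 h of dark. The cold groups were then kept at 4 °C for 24 h and the control groups were left untreated. Each condition had 3 m6A lists, 3 mRNA libraries of poly(A) RNA and 2 libraries of polysomal RNA, the RNA that sediments with ribosomes. No allele or agent other than the temperature differed between groups. Whether replicates are separate batches of plants is not stated, and each p-value below rests on a spread between samples that may be technical.

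m6A is written into plant mRNA by a methyltransferase complex built around MTA and MTB, is removed by ALKBH-type demethylases and is bound by YTH-domain readers of the ECT family. The writers act mostly at adenosines in the RRACH motif (R is A or G, H is A, C or U), and in Arabidopsis the mark gathers around stop codons and in 3′ untranslated regions (UTRs). In mammalian cells, exon junction complexes deposited at splice sites keep the mark away from nearby sequence, so that long internal exons, last exons and unspliced transcripts hold most of it.

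Total gene counts ran from 3282574 to 10965304 in the mRNA libraries and from 12984431 to 22200225 in the polysome libraries. Cold mRNA replicate 3 stood apart, with 22.1% of its gene counts from organelle genes where the other 5 had 6.28% to 8.70%, and cold m6A list 3 was the shortest, with 15383 peaks against up to 27310. The never-called genes took 2.16% to 2.98% of the gene counts of the mRNA libraries and 1.85% to 2.74% of those of the polysome libraries. Without the 2 antenna genes CAB1 and CAB2 these shares were 0.971% to 1.29% and 0.911% to 1.07%. CAB1 and CAB2 thus held a large part of the RNA of the group.

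Absence from the lists was a strict condition, because each list held peaks down to a −log10 p of about 1.30, and only 23.3% to 37.2% of the peaks of a list had a q of at most 0.05. With peaks of q at most 0.05 alone, 2823 genes had no call. Counting summits anywhere between gene start and end left 335, counting exons of any isoform left 339, and counting peaks on either strand left 353. In 39 never-called genes a summit lay inside the gene but outside the exons of the first isoform. In 18 a summit lay within 300 bases downstream of the annotated gene end on the same strand, which is 4.81% of the members, against 2.54% of genes called in 1 to 5 lists and 1.37% of genes called in all 6.

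The level minimum also shaped the group, and 177 of the 374 members had a mean under 10 CPM over the 6 mRNA libraries. At a minimum of 1 CPM 2128 genes would have been members, at 10 CPM 149 and at 20 CPM 75. The members nearest above the minimum, by the lower of the 2 group means, were PMT6, a polyol transporter, at 5.001 CPM, AT5G18970 at 5.01 CPM and AT3G61980 at 5.01 CPM. The genes without a peak nearest below it were AT2G24170 at 4.99 CPM, AT1G48745 at 4.98 CPM and UMAMIT21 at 4.98 CPM. The most abundant genes with a summit in exactly 1 list were LHB1B2 and CAB3, which encode the same kind of light-harvesting protein as CAB1 and CAB2, and LHCA3 of the photosystem I antenna. Their single peaks had folds over background of 1.43, 1.29 and 1.29 in the authors' deposited lists, with −log10 q values of 0.116, 0 and 0.

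Sequences are shown for members that the following results turn on, because the writers act mostly at RRACH motifs. A call here is a peak summit and does not depend on a motif. All but 1 of the 374 transcripts hold at least 1 RRACH motif. The exception was AT2G43530, a small knottin-type gene whose annotated transcript of 252 nt has no UTR. Each line gives the RRACH site nearest to the stop codon with 10 bases on each side, read from the TAIR10.1 assembly of RefSeq on the gene's own strand, 5′ to 3′, with T for U. The motif is in capitals, and distances run from the first base of the stop codon to the A of the motif that the writers would use.
CAB1: gaccgatagaGAACCttgctgacca
CAB2: ttcgagtgagAGACAggaggagaaa
TT4: gttcctctctAAACAgaacgcttgc
GER3: gtgcttggggGAACTaattaagctt
LTP5: atcagtgccaGAACCaactgtaaca
TIP2;2: tgcacttgctGGACTcatctacgga
RMA1: ggtgtaaggaAAACAtagtcaaaga
AT2G27385: tatgtgtagaGGACAtgtaactatc

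The site of CAB1 lies at chr1:10478786-10478810 on the plus strand, in the coding sequence, at a distance of 74 nt. That of CAB2 lies at chr1:10475017-10475041 on the minus strand, in the 3′ UTR. The sites of TT4 (chr5:4490024-4490048, plus strand) and GER3 (chr5:6975311-6975335, minus strand) are 3 and 6 nt from that base, and the TT4 motif shares its first letters with the stop codon itself. Those of LTP5 (chr3:19138779-19138803, minus strand), TIP2;2 (chr4:9700172-9700196, plus strand), RMA1 (chr4:1557837-1557861, minus strand) and AT2G27385 (chr2:11716617-11716641, minus strand) are 21, 64, 58 and 70 nt from it. These 8 transcripts hold between 6 and 30 RRACH motifs each, so none of them lacked candidate sites. A motif match is a description of the letters and no evidence of a methylated base.

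The coding sequences of a pair of very short members are given whole. MT2B, a metallothionein that binds metal ions through its cysteines, is encoded by 234 nt over 2 exons at chr5:506755-507164 on the minus strand, and AT4G30650, of the small hydrophobic RCI2 family of cold- and salt-induced membrane proteins, by 222 nt at chr4:14954403-14954698 on the plus strand. Their coding sequences hold 4 and 2 RRACH motifs, in capitals, and their whole transcripts 8 and 7.
MT2B: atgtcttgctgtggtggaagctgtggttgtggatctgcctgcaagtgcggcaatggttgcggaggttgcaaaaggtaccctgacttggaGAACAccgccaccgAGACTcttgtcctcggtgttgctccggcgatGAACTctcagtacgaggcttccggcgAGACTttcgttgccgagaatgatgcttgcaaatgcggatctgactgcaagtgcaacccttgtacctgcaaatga
AT4G30650: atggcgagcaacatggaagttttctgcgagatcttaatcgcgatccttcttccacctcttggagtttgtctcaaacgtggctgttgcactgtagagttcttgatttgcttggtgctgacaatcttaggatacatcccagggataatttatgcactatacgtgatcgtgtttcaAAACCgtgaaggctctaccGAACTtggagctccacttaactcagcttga

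Never-called genes had few exons. Their median was 2 exons (quartiles 1 and 4), against 4 in genes called in 1 to 5 lists and 6 in genes called in all 6. A single exon was annotated in 140 of the 374, which is 37.4% (95% Wilson interval 32.7% to 42.4%, counting error only), against 17.3% and 7.14%. The longest exon of a member had a median of 884.5 nt, against 812 nt and 630 nt, although the whole transcript was shorter, with a median of 1534.5 nt against 1763 nt and 1777 nt. Transcripts under 1000 nt made up 24.3% of members, against 11.2% and 10.9%.

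**Figure D1:**
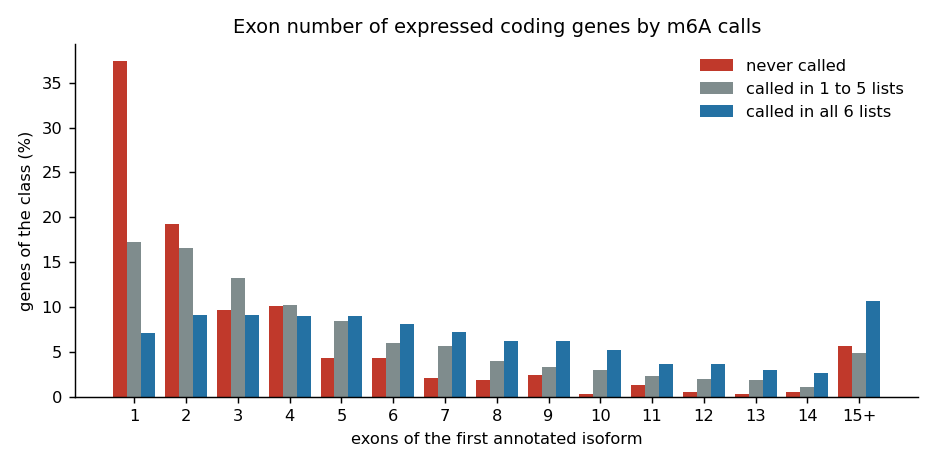
Share of genes (percent of each class) by the number of exons of the first annotated isoform, for expressed coding genes never called, called in 1 to 5 lists and called in all 6 lists. The bar at 1 exon stands at 37.4% for never-called genes against 17.3% and 7.14%, and the last position gathers 15 exons and more.

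Read the other way, the share of expressed genes that were never called fell from one exon class to the next. It was 9.18% of 1525 genes with 1 exon, 3.53% of 3059 with 2 to 3 exons, 1.96% of 3564 with 4 to 6 exons and 0.825% of 3032 with 7 to 10 exons. Among 2787 genes with 11 exons or more it was 1.11%, within the interval of the class before it (0.559% to 1.21%). The share also went with level: 9.15% of genes under 5 CPM per kb of transcript were never called, and 1.49% of those at 80 CPM per kb and over. The exon pattern was present at each level. Under 5 CPM per kb, 19.8% of single-exon genes were never called against 5.22% of genes with 7 to 10 exons, and at 80 CPM per kb and over 7.2% of single-exon genes (9 of 125) against 0 of 195. The 0 of 195 allows a share of up to 1.93% by the same interval. Among transcripts under 1000 nt, 13.9% of single-exon genes (44 of 317) and 3.70% of genes with 7 to 10 exons (3 of 81) were never called.

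**Figure D2:**
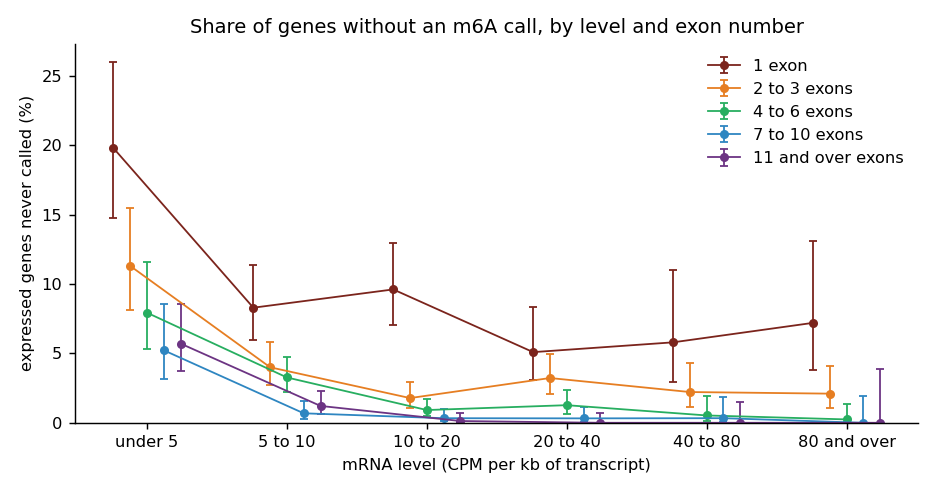
Percent of expressed coding genes never called (y axis, 95% Wilson intervals as bars) by mRNA level in CPM per kb of transcript (x axis) and exon class (colours). Single-exon genes lie highest at each level, from 19.8% under 5 CPM per kb to 7.2% at 80 CPM per kb and over.

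Base composition was close between the classes, and RRACH density was somewhat lower in members. It was lower in members than in called genes in each level class, with medians of 12.6 against 13.6 per kb in the class under 5 CPM per kb. RRACH motifs numbered 12.0 per kb of transcript in the median member, against 13.0 and 13.4 per kb in genes called in 1 to 5 lists and in all 6, and GC content was 41.5% against 41.4% and 41.8%. No RRACH motif lay within 100 bases of the stop codon in 56 members (15%), against 9.26% and 6.38% of the called genes. A transcript without an annotated 3′ UTR has no sequence downstream of the stop codon for this count. Such transcripts were more frequent among members, as given below, and their part in these shares was not tested. The plant m6A-associated motif TGTAH (H as above, on the sense strand) numbered 3.00 per kb, against 2.85 and 2.74. The median 3′ UTR was 256.5 nt long against 266 nt and 279 nt, but 35 members (9.36%) had no annotated 3′ UTR, against 2.20% and 0.600% of called genes; summits beyond the coding sequence of such a gene could not be counted, and their part in the result was not tested. Only 6 of these 35 had a single exon, and members with an annotated 3′ UTR also had a median of 2 exons. At least one 100-base window shared with another gene was found in 3.21% of members, against 3.64% and 3.05%. The members were spread over the chromosomes, from 2.44% of expressed genes on chromosome 2 to 2.99% on chromosome 1.

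Some members were long and rich in introns. There were 31 members with 11 exons or more, chosen here after their values were seen. MET18, an ARM-repeat protein of the cytosolic iron-sulphur cluster machinery, had 22 exons and a mean of 33.0 CPM, and the ARM-repeat gene AT5G06120 had 30 exons and 30.3 CPM. MET18 has an annotated 3′ UTR of 354 nt, and AT5G06120 has none. Among members of at least 50 CPM the longest transcripts were those of HSD2, a hydroxysteroid dehydrogenase, with 2605 nt, and of the transporters AT5G14120 and AT3G21670, with 2490 and 2209 nt. The shortest were those of the nucleoside diphosphate kinase NDPK1 (450 nt, no UTR annotated), MT2B (571 nt) and the lipid-transfer gene AT5G48490 (579 nt).

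The 12 most abundant members had varied roles. CAB1 and CAB2, antenna proteins of photosystem II, are single-exon neighbours with mean mRNA levels of 6814 and 4440 CPM per kb of transcript. MT2B followed with 2510, then TT4 (chalcone synthase, the first step of flavonoid synthesis) with 607, NDPK1 with 606, MT2A with 575, LTP5 (a cell-wall lipid-transfer protein) with 496 and the apoplastic germin GER3 with 359 CPM per kb. AT4G30650, the plastid ribosomal protein PSRP6, the ascorbate-recycling enzyme DHAR1 and the uncharacterised AT5G44580 completed the 12 highest by CPM, with 275, 249, 212 and 207 CPM per kb. The median member had 7.79 CPM per kb. Reads with several alignments were given to no gene, so levels of near-identical copies such as CAB1 and CAB2 are uncertain; 3.27% and 4.44% of their 100-base windows are shared with another gene.

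By the annotated product, 144 members fell into 1 of 29 families and 230 into none. The families with many members relative to their expressed genes were small ones. Of 16 expressed SAUR genes, which answer to auxin, 4 were never called (25%). Of 23 aquaporin genes 4 were never called (17.4%): the vacuolar TIP2;2 and TIP4;1 and the plasma-membrane PIP2;4 and PIP2;8. Histones had 4 of 33, among them HTA10 and RAT5 of the H2A class, arabinogalactan proteins of the cell surface 3 of 29, and pentatricopeptide proteins, which bind organelle RNA, 10 of 99. All 16 SAUR genes and 18 of the 33 histone genes have a single exon, but none of the 23 aquaporin genes has. Of the 4 histone members only 1 has a single exon. Proteins of unknown function made up 45 members of 654 expressed (6.88%).

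Some families had few members or none, where the share over all expressed coding genes was 2.68%. Of 297 ribosomal protein genes 3 were never called (1.01%). None of 41 proteasome, 45 tRNA synthetase, 32 Sm and snRNP, 46 peptidyl-prolyl isomerase or 36 glutathione S-transferase genes was. By product words, transcription factors had 12 of 749 (1.60%) and protein kinases 9 of 476 (1.89%). The words for transcription factors missed the members ZAT6 and OBP4, which are such factors, and counted the RING-finger gene AT3G48030. The share of 1.60% is thus that of a set of product words. None of the 17 expressed genes of the COR and LEA list of cold-protective proteins, of the 12 clock genes or of the 10 genes of the m6A machinery was a member, nor was any of the 4 leaf markers, whose calls ranged from 2 to 5 lists. The COR and LEA list has 21 genes, and those not counted here fell under the level minimum. It holds RCI2A and RCI2B but not AT4G30650 of the same RCI2 family, which was a member. The root-hair gene COBL9, listed as SHV2 in the annotation, was a member at 6.13 CPM. Sets of 46 genes or fewer are too small for 0 members to be told apart from a share of 2.68%. No family was tested.

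In mRNA, 42 of the 374 never-called genes were higher after cold and 27 lower, by edgeR's quasi-likelihood test at 0.05, with Benjamini-Hochberg adjusted p-values across 19261 genes. That is 11.2% and 7.22% of members, beside 13.4% and 12.3% of all genes tested and 14.8% and 11.4% of expressed coding genes called in at least 1 list. The shares were 9.85% and 16.3% of genes called in 1 to 5 lists, and 16.9% and 9.24% of genes called in all 6 lists. The median log2 change of members was 0.02, and of all genes tested −0.01. A gene near 0 in 1 condition could not be a member, since the rule set a minimum in both groups. With plain library totals in place of TMM scaling the counts were 24 higher and 39 lower, where the median of all genes moved to −0.18. Without cold mRNA replicate 3 they were 41 and 23. They were 23 and 21 without cold mRNA replicate 1, 25 and 11 without cold mRNA replicate 2, and 21 and 10 without control mRNA replicate 2.

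AT4G30650 had the largest rise. Its mRNA stood at 584, 439 and 324 CPM in the cold libraries and at 7.95, 9.85 and 17.1 CPM in the control libraries, a log2 change of 5.43 ± 0.32 (SE; edgeR adjusted p = 7.24e-05). The groups were far apart. GER3 mRNA stood at 824, 629 and 435 CPM in cold and at 124, 91.5 and 67.4 CPM in control, a log2 change of 2.90 ± 0.26 (edgeR adjusted p = 0.000415). Its groups did not overlap either. TT4 mRNA was 1646, 1059 and 1547 CPM in cold and 611, 645 and 693 CPM in control (log2 change 1.33 ± 0.22, edgeR adjusted p = 0.00416). The other large rises were those of AT5G49645 (log2 change 2.57), the lipid-transfer gene AT5G48490 (2.04), AT5G66052 (1.92), AT5G47455 (1.5) and the pentatricopeptide gene AT1G74750 (1.44). Of these 8 genes only AT5G66052 lost its call when 1 library was left out, without control mRNA replicate 2.

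Some of the most abundant members also rose. CAB1 mRNA was 9782, 8765 and 11196 CPM in cold and 5580, 7221 and 7744 CPM in control (log2 change 0.74 ± 0.24, edgeR adjusted p = 0.0471), with no overlap. This call was lost in 5 of 6 runs that left out 1 library, as was that of CAB2 (0.66 ± 0.19, edgeR adjusted p = 0.0348). In edgeR the CAB1 call was also lost with library totals (adjusted p = 0.0516), RLE factors (0.0533) and all 10 libraries in 1 fit (0.0579), and that of CAB2 with all 10 in 1 fit (0.0549). MT2A (log2 change 1.15 ± 0.23) and LTP5 (0.88 ± 0.14) kept theirs in all 6 runs. MT2B was at 1414, 1357 and 998.9 CPM in cold and at 1640, 1461 and 1729 CPM in control, and its log2 change of −0.18 ± 0.15 did not pass (edgeR adjusted p = 0.389).

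TIP2;2, a vacuolar aquaporin, had the largest fall in mRNA. It stood at 20.1, 20.0 and 9.44 CPM in the cold libraries and at 216, 210 and 125 CPM in the control libraries (log2 change −3.30 ± 0.29, edgeR adjusted p = 0.000419). The zinc transporter ZIP11 was at 10.5, 10.03 and 10.7 CPM in cold and 27.1, 32.8 and 54.5 CPM in control (log2 change −1.71 ± 0.27, edgeR adjusted p = 0.00343). Neither gene's groups overlapped, and both calls held in all 6 runs that left out 1 library. The secreted AT4G33720 (log2 change −2.18), the trypsin inhibitor TI1 (−2.0), AT3G07350 (−1.81), AT4G34630 (−1.53), the DOF factor OBP4 (−0.93) and AT1G22190 (−0.92) fell too; of these 6 only OBP4 was called in every such run. Of the 4 histone members 2 were called lower in mRNA, HTA10 by 0.85 and RAT5 by 0.91 on the log2 scale. HTA10 kept its call in all 6 runs and RAT5 in 4.

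In polysomal RNA, 17 never-called genes were higher after cold and 10 lower among the 368 that passed the filter on low counts, by the same edgeR test over 19239 genes. The shares were 4.62% and 2.72%, beside 3.87% and 3.95% of all genes tested and 4.83% and 3.8% of genes called in at least 1 list. Genes called in 1 to 5 lists had 3.64% and 5.87%. The median log2 change of the members was −0.09 and of all genes tested −0.02. This comparison had 2 libraries a group, and many calls needed both control libraries: without control polysome replicate 1 the counts were 2 and 3, and without replicate 2 they were 4 and 7. The polysome libraries took no part in the rule.

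Polysomal TT4 RNA was at 961 and 520 CPM in the cold libraries and at 53.0 and 77.0 CPM in the control libraries. Its log2 change was 3.55 ± 0.41 (edgeR adjusted p = 0.0198), and the call held in all 4 runs that left out 1 library. Polysomal AT4G30650 RNA was at 487 and 567 CPM in cold and 63.1 and 22.0 CPM in control (log2 change 3.69 ± 0.55, edgeR adjusted p = 0.0251); the call was lost without either cold library. In both genes the cold libraries stood well above the control libraries. Other rises were those of the stress zinc-finger factor ZAT6 (log2 change 1.33), the cold shock domain RNA-binding protein CSDP1 (1.31), the glycosyltransferases LGT8 (1.60) and LGT9 (1.46), the peptide hormone precursor RALFL22 (1.21) and the Trm112-like AT1G22270 (1.28). Each of these 6 calls was lost without control polysome replicate 1 and without control polysome replicate 2.

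Polysomal TIP2;2 RNA was at 5.72 and 8.70 CPM in cold and 61.9 and 107 CPM in control (log2 change −3.50 ± 0.39, edgeR adjusted p = 0.0189). AT4G27450, a stress-related gene of the aluminium-induced class, was at 6.49 and 10.9 CPM in cold and 109 and 171 CPM in control (log2 change −3.96 ± 0.40, edgeR adjusted p = 0.0174). Both calls held in all 4 runs that left out 1 library, and that of AT4G27450 was lost when all 10 libraries shared 1 fit (edgeR adjusted p = 0.0659). In mRNA AT4G27450 spread widely among the control libraries, at 112, 48.6 and 5.25 CPM, and was not called (edgeR adjusted p = 0.14). The H2A gene RAT5 (log2 change −1.73), Lhca6 (−1.54), which links photosystem I to the NDH complex, the RING proteins RMA1 (−1.66) and ATL15 (−1.30) and PMT6 (−1.05) fell as well. Of these 5 only RAT5 was called in all 4 runs.

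**Figure D3:**
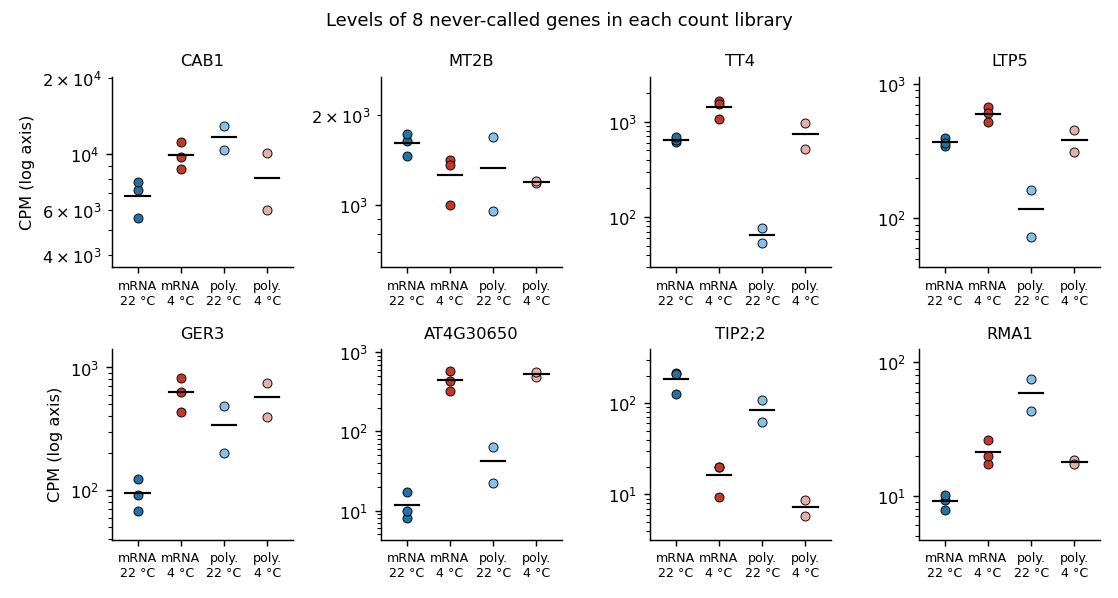
CPM of 8 never-called genes (log axis) in each control (22 °C) and cold (4 °C) library of mRNA and polysomal RNA (poly.). Points are libraries and bars are group means; AT4G30650 mRNA rises from 7.95 to 17.1 CPM at 22 °C to 324 to 584 CPM at 4 °C, and RMA1 goes up in mRNA and down in polysomal RNA.

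Among the 368 never-called genes tested in both pools, 13 were called in both, which is 19.1% of the 68 called in mRNA and 48.1% of the 27 called in polysomes. Over all 18668 genes tested in both, these shares were 18.9% and 61.9%. Of the 13 members 8 were higher in both, 3 lower in both, and 2 went opposite ways. All genes had 2.65% higher in both, 2.22% lower in both and 0.0643% opposite. The 3 that were lower in both were TIP2;2, RAT5 and the proton pyrophosphatase VHP2;2, and the opposite pair was RMA1 and PMT6, each up in mRNA and down in polysomal RNA. ZIP11 was called lower in mRNA, while its polysomal level was 9.73 and 12.0 CPM in cold and 10.7 and 11.3 CPM in control. GER3 was called higher in mRNA, while its polysomal level was 749 and 397 CPM in cold and 483 and 203 CPM in control. A gene called in one pool alone is not thereby shown to differ between pools.

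**Figure D4:**
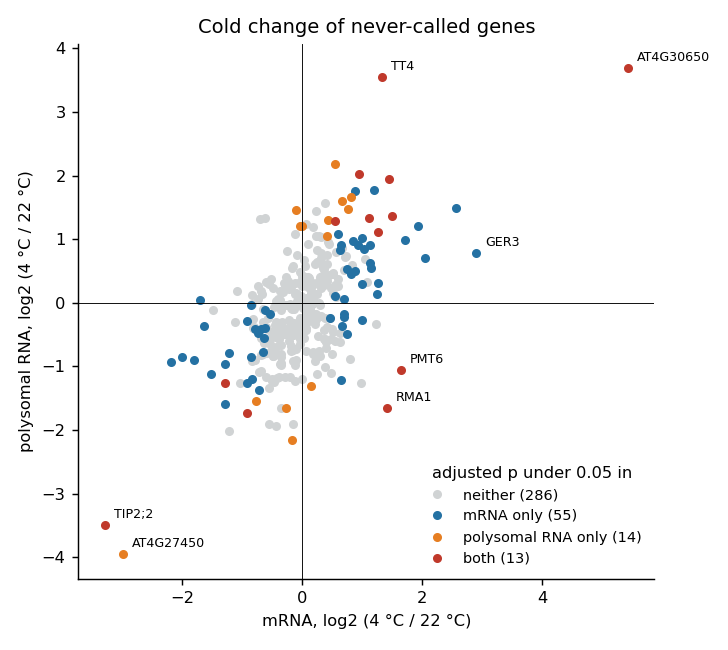
Log2 change in cold in mRNA (x axis) against that in polysomal RNA (y axis) for the 368 never-called genes tested in both; colours mark the pools in which edgeR's adjusted p was under 0.05. AT4G30650 and TT4 lie at the top right, TIP2;2 at the bottom left, and RMA1 and PMT6 at the lower right.

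The difference itself was tested as the log2 change in polysomal RNA minus that in mRNA, over all 10 libraries. No never-called gene was higher and 2 were lower by edgeR (0.535% of 374). The shares were 0.065% and 0.22% of all 20001 genes tested, and 0.0883% and 0.206% of genes called in at least 1 list. At an unadjusted edgeR p under 0.05, 16 of the 374 members were higher and 33 lower, beside 963 and 1522 of all 20001 genes. DESeq2 called 5 members higher and 7 lower, given here without a count over all genes. RMA1, a RING-type ubiquitin ligase of the endoplasmic reticulum membrane, was at 17.3, 26.2 and 19.8 CPM in cold mRNA and 9.25, 7.84 and 10.04 CPM in control mRNA. Its polysomal RNA was at 18.6 and 17.3 CPM in cold and 74.5 and 43.2 CPM in control. The groups did not overlap in either pool and moved in opposite directions, with a difference of −3.12 ± 0.37 (edgeR adjusted p = 0.0116). RMA1 overlaps another gene on the same strand and shares 6.59% of its 100-base windows with another gene, so its counts are uncertain.

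AT2G27385, a secreted protein of the pollen Ole e 1 and extensin family, was at 75.2, 89.9 and 53.9 CPM in cold mRNA and 48.6, 57.5 and 52.1 CPM in control mRNA. Its polysomal RNA was at 111 and 129 CPM in cold and 252 and 331 CPM in control. The polysomal groups were apart and the mRNA groups overlapped. Even so, edgeR called the mRNA higher in cold (log2 change 0.64, adjusted p = 0.0200) and did not call the polysomal fall. The mRNA call was lost in 3 of 6 runs that left out 1 library. The difference between the pools was −1.92 ± 0.28 (edgeR adjusted p = 0.0247). The median difference over members was −0.16 and over all genes tested −0.05. With plain library totals these medians were 0.02 and 0.13, so only the distance between members and all genes kept its sign.

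Within each condition, polysomal RNA was compared with total mRNA, which says where a gene stands relative to other genes and not how many ribosomes it carries. Total mRNA is the denominator of this ratio and also the level that the rule used, with no minimum in polysomes, so the ratios are given as a description. The library kinds also differed in make-up. Reads with several alignments were 61.9% to 82.2% of tallied reads in mRNA and 4.65% to 5.50% in polysome libraries. Organelle genes took 6.28% to 22.1% of gene counts in mRNA and 0.153% to 0.437% in polysomes. The part of this in the ratios was not tested. The median log2 ratio of never-called genes was −0.19 in control and −0.23 in cold. It was 0.06 and 0.09 for genes called in at least 1 list, which passed the same minimum. Among these, genes called in 1 to 5 lists had −0.07 and −0.04. It was −0.02 and −0.01 for all genes tested, which did not have to pass the minimum. In control 36 members were higher and 77 lower in polysomes by edgeR (9.63% and 20.6%, beside 14.5% and 14.0% of all genes tested and 18.0% and 11.8% of genes called in at least 1 list). In cold 8 were higher and 61 lower (2.14% and 16.3%, beside 4.14% and 7.31%, and 5.7% and 5.09%). Genes called in 1 to 5 lists had 12.0% higher and 15.7% lower in control, and 2.47% and 7.87% in cold. With plain library totals, genes called in at least 1 list went from 2447 higher and 1606 lower in control to 1235 and 2432. The control counts of members moved the same way, to 21 and 105. Without control polysome replicate 2 the control counts were 22 and 49, and without cold polysome replicate 2 the cold counts were 2 and 21.

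**Figure D5:**
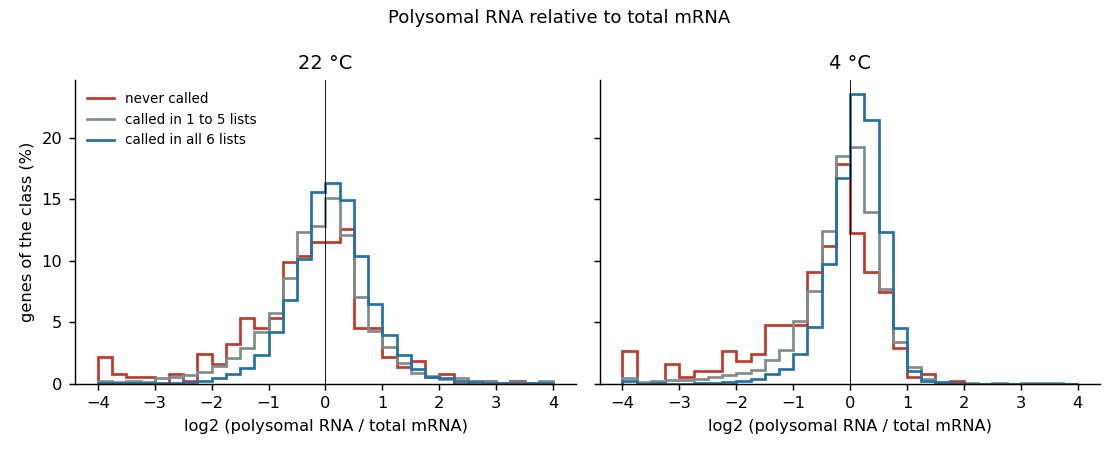
Distribution of the log2 ratio of polysomal RNA to total mRNA in control (22 °C, left) and cold (4 °C, right), as the percent of each class of expressed coding genes; values beyond the axis are gathered in the end bins. The never-called genes have medians of −0.19 and −0.23 and a tail to low ratios that the called classes show less.

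The lower ratio of members was seen in the classes that hold most of them. Under 5 CPM per kb the control median was −0.25 for 129 members and −0.11 for 1281 called genes. The cold medians there were −0.28 and −0.19, so called genes of this level also stood low. At 5 to 10 CPM per kb the control median was −0.17 for 100 members and 0.00 for 3228 called genes. At 10 to 20 CPM per kb it was −0.31 for 64 members and 0.07 for 3783 called genes. Among single-exon genes the control median was −0.23 for 140 members and 0.00 for 1385 called genes. In the 2 highest level classes the conditions differed. The control medians of members were higher, at 0.26 for 19 members against 0.17 at 40 to 80 CPM per kb and 0.48 for 18 members against 0.21 at 80 CPM per kb and over. The cold medians were lower, at 0.19 against 0.22 and −0.03 against 0.32. These are descriptions of the classes, without a test.

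There were 48 members that were lower in polysomes in both conditions and 5 that were higher in both. That is 12.8% and 1.34% of members, beside 5.55% and 2.9% of all genes tested and 3.82% and 4.00% of genes called in at least 1 list. Several of the 48 are known root genes, named here after their values were seen. RHS13, a root hair specific gene, was at 17.6, 12.6 and 20.7 CPM in cold mRNA and 29.7, 29.5 and 14.2 CPM in control mRNA, but at 0.18 and 0.616 CPM in cold and 1.08 and 1.39 CPM in control polysomes. Its log2 ratio was −4.04 ± 0.52 in control and −5.47 ± 0.62 in cold (edgeR adjusted p = 0.000699 and 0.000851). The peroxidase gene AT4G26010 had a mean of 31.5 CPM in mRNA and 1.76 CPM in polysomes (log2 ratio −3.67 in control and −4.57 in cold). RHS18, another root hair gene, had −3.21 and −3.96, COBL9, needed for root hair growth, −3.60 and −3.07, and CYP86B1, an enzyme of suberin synthesis, −2.0 and −2.99. The root ammonium transporter AMT1;3 had −2.09 and −2.54, and the aquaporins TIP4;1 and PIP2;4 had −2.24 and −3.01 and −1.72 and −2.27. None of these 8 genes passed the test of polysomal RNA after cold, with 2 libraries a group, although the RHS13 groups did not overlap. They were picked from the 48 as root genes, and root genes among the rest were not counted. The lowest cold ratios of the 48 included other genes. These were the MATE efflux gene AT1G23300 (−9.29 in control and −7.93 in cold), AT2G01008 (−5.07 and −7.21) and the Nse4 gene AT3G20760 (−5.68 and −5.22). AT1G23300 and AT2G01008 overlap another gene.

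Markers of the organs moved with this ratio. The 4 root markers summed to 42.3 to 79.4 CPM in the mRNA libraries and to 13.2 to 20.7 CPM in the polysome libraries, and 3 of the 4 were lower in polysomes in both conditions by edgeR. COBL9, 1 of these 3, is itself among the 48 members lower in both conditions. The 4 leaf markers summed to 16301 to 20662 CPM in mRNA and to 30483 to 36039 CPM in polysomes, and all 4 were higher in polysomes in control by edgeR, but 2 of the 4, RBCS1A and PSBO1, in cold. No root or leaf marker was at 0 in every library of a group, and the 4 flower markers summed to at most 6.65 CPM in any library. The part of root tissue in the ratio of the never-called genes was not tested. In these bulk samples fewer cells of a type and less RNA per cell cannot be told apart.

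TT4 and LTP5 also stood low in control polysomes, and neither was called so in cold. TT4 had a log2 ratio of −3.06 ± 0.36 in control (edgeR adjusted p = 0.000401) and −0.91 ± 0.32 in cold (edgeR adjusted p = 0.0925), and LTP5 had −1.38 ± 0.32 (edgeR adjusted p = 0.00958) and −0.57 ± 0.31 (edgeR adjusted p = 0.254). At the other end, AT2G27385 stood at 2.73 ± 0.20 in control and 0.81 ± 0.19 in cold, and RMA1 at 2.97 ± 0.26 and −0.16 ± 0.26. The change of the ratio between conditions is the difference tested before, which passed for AT2G27385 and RMA1 and did not pass for TT4 (2.15 ± 0.45, edgeR adjusted p = 0.0971) or LTP5 (0.81 ± 0.43, edgeR adjusted p = 0.479).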

How the data were processed

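The deposited count files hold raw whole-number counts, 1 per gene; STAR, HTSeq and TAIR10 are named per the submitters' processing notes. Versions, annotation release and strand setting are not given in the sources used here. Reads of overlapping and antisense genes (98 of the members) cannot be told apart. The peak files hold a score, a fold over background (a ratio), a −log10 p and a −log10 q per peak as the authors deposited them, from MACS2 per the submitters' processing notes, 1 list per library. Gene counts were 6.60% to 31.2% of tallied reads in mRNA and 92.8% to 93.8% in polysome libraries; the rest were the 5 HTSeq summary lines and were left out. Summits were placed on RefSeq gene models of TAIR10.1, matched by locus name. Levels are CPM, counts scaled to the total over genes without TMM; fold changes come from edgeR 4.0.16 in R 4.3.3 (TMM, filterByExpr, robust quasi-likelihood F test, threshold 0.05) with their SE, and DESeq2 1.42.0 was an alternative. The mRNA fit used 6 libraries, the polysome fit 4, and the difference and the ratios all 10. The scripts were tested on simulated counts with 200 changed genes. All replicate pairs differed by more than sampling noise.

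The members, families and lists were chosen with earlier results of these data known, and a family word was corrected after the files were read. Named genes were the 12 of highest mRNA level, up to 8 rises and 8 falls per comparison (5 for the difference) past the threshold whose average log2 CPM reached 4 (and, for mRNA and polysomes, no overlap between groups), the 2 highest members and up to 2 polysome rises and falls per family, 3 genes at each limit, and the 3 longest and shortest of at least 50 CPM. Other genes named were chosen after their values were seen, as is said beside them, and so were the genes named in the ratio results.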

Additional observations from a re-analysis of the deposited data

Results flagged for a closer look

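RMA1 was singled out because its change after cold differed between polysomal RNA and mRNA by the test of the difference itself, at −3.12 on the log2 scale (edgeR adjusted p = 0.0116). It was higher in all 3 cold mRNA libraries and lower in both cold polysome libraries. The call was lost without cold polysome replicate 1 (adjusted p = 0.0811 by edgeR) and held in the other 9 runs that left out 1 library.

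AT2G27385 was singled out for the same reason, at −1.92 (edgeR adjusted p = 0.0247). Its adjusted p ranged from 2.90e-07 with DESeq2 to 0.108 without cold polysome replicate 1 in edgeR, and the call was lost in 5 of 10 runs that left out 1 library and with plain library totals.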

How the results depend on the processing

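No called change of a named gene changed sign under an alternative. The balance of counts did turn: in mRNA from 42 higher and 27 lower to 24 and 39 with library totals, and in polysomes from 17 and 10 to 36 and 42 with the replicate block, 25 and 27 with DESeq2, and 2 and 3 or 4 and 7 without control polysome replicate 1 or 2. The median difference between pools went from −0.16 to 0.02 with library totals. The number of never-called genes was 2128, 149 and 75 at minimums of 1, 10 and 20 CPM, 2823 with peaks of q at most 0.05 alone, and 12751 with the gene on the strand the peak's name gives; leaving out 1 library or list gave 340 to 478. Members of at least 20 CPM had median transcript, coding and 3′ UTR lengths of 1246, 813 and 280 nt, and the longest isoforms had a 3′ UTR of 278.5 nt and a 5′ UTR of 185 nt.

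Calls in mRNA were 21 to 41 higher and 10 to 36 lower with 1 library left out, 16 and 7 among members of at least 20 CPM, and 329 and 389 among genes without a peak of q at most 0.05. Calls in polysomes were 2 to 22 higher and 3 to 13 lower with 1 library left out, 28 and 22 when all 10 libraries shared 1 fit, 6 and 1 among members of at least 20 CPM, and 123 and 134 among genes without a peak of q at most 0.05. For the difference between the pools, 0 to 3 were lower with 1 library left out, 1 with library totals, 1 among members of at least 20 CPM, 5 higher and 7 lower with DESeq2, and 2 and 10 among genes without a peak of q at most 0.05. The median ratio was −0.45 in control and −0.33 in cold with library totals, and −0.25 to −0.18 and −0.31 to −0.21 with 1 library left out. The cause of these moves was not tested.

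Same-numbered libraries deviated with correlations of −0.03, −0.01 and 0.22 in mRNA. The highest mRNA value, 0.30, was that of cold replicate 2 with control replicate 1. In polysomes the correlation was 0.465. With 2 libraries a group both pairs give the same value, so it cannot show pairing. With the number as a block, calls were 36 and 42 in polysomes, 32 and 31 in mRNA, and 1 and 3 for the difference, and the median ratio was −0.23 in control and −0.29 in cold. The block also lost the mRNA calls of CAB1 and CAB2 (edgeR adjusted p = 0.0652 and 0.0747). Polysomal calls rest on 2 libraries a group, and mRNA calls of low genes on 3282574 gene counts in cold replicate 3.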
